A study of Mus musculus with 48 samples.

Results

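The protein components of the mitochondrial ribosome were followed in 3T3-L1 cells, a mouse fibroblast line that turns into fat cells in culture. The cells were studied with and without knockdown (KD) of PPARγ, the nuclear receptor that drives that conversion. The members were every probe whose target symbol on the array was MRPL or MRPS followed by a number, that is the numbered proteins of the large and the small mitochondrial ribosomal subunit. The rule found 99 of 24613 probes, which stood for 72 of 18991 gene symbols, with 60 probes for 44 MRPL genes and 39 probes for 28 MRPS genes.

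Mitochondrial ribosomes translate the few proteins that mitochondrial DNA encodes, all of them subunits of the respiratory chain and of ATP synthase. Their ribosomal proteins are all encoded in the nucleus, made in the cytosol and imported, and they join ribosomal RNAs that mitochondrial DNA supplies. Many of them have a counterpart in the bacterial ribosome, while others are found only in mitochondria. Fat cell formation is known to come with an increase in mitochondrial mass and respiratory capacity.

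The study compared PPARγ KD with a non-targeting control over fat cell differentiation on Illumina mouse BeadChips, in 48 arrays that formed 16 groups of 3 biological replicates (2 siRNAs on each of 8 days). Cells in both arms carried a siRNA pool at 50 nM, directed at PPARγ or at no gene, introduced before differentiation. Both arms then received the same agents: dexamethasone (0.25 µM) with IBMX (0.5 mM) over the 48 h from day −2 to day 0, then 5 µg/ml insulin and 1 µM rosiglitazone, a PPARγ ligand, for 48 h from day 0. RNA came from days −2, 0, 1, 2, 3, 4, 5 and 6, counted from the addition of rosiglitazone. The control was thus a differentiating culture with the ligand, not an untreated one, and the siRNA was a pool used in 1 cell line.

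Between 33.4% and 40.4% of all probes, and between 83.8% and 88.9% of the member probes, were above background on an array, with detection p below 0.01. Of the 99 member probes, 82 were above background on all 48 arrays, 6 on some and 11 on none. The 11 left MRPL21, MRPL32, MRPL45, MRPS14 and MRPS22, 5 genes in all, without any measured level. The PPARG probe with the strongest signal stayed above background on all 24 KD arrays, at a median log2 signal of 9.35 (7.58 to 9.81) against 11.5 on the control arrays, whose lowest value lay above the highest KD value. The difference was −2.34 ± 0.04 (SE, adjusted p = 9.5e-34). Replicate 3 stood apart from replicates 1 and 2: 8 of the 82 member probes, and 6.31% of all probes above background on every array, differed there by more than 1 log2 unit from the mean of replicates 1 and 2. The 9 adipocyte markers checked against the label were each above background on at least 1 control array, and 5 of them on at least 1 KD array. All 5 macrophage and all 3 endothelial markers were below background everywhere, and the 7 fibroblast markers were detected in both arms.

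To show what lies before the members, the stretch from 250 bases upstream to 50 bases downstream of each annotated gene start was taken from RefSeq (GRCm38.p6), which held such a stretch for 63 of the 72 genes, 67 starts in all. Promoters of the members were rich in G and C, with a median of 58% against 52.7% over all 32851 promoters, and held a median of 21 CG pairs against 7. Short motifs were searched on both strands: GCGCATGCG, known for the factor NRF1, CCGGAAGT for ETS factors such as GABP, AAGATGGCG for YY1, TCAAGGTCA for the ERR receptors, CACGTG for E-box factors, and AGGTCA, the single site of nuclear receptors, which is also contained in the ERR motif. DR1 was counted as AGGTCA repeated after a gap of 1 base, the arrangement bound by PPARγ with its partner RXR. The NRF1 motif stood in 7 of 67 member promoters (10.4%, against 1.75% of all promoters), the ETS motif in 12 (17.9% against 3.89%) and the YY1 motif in 7 (10.4% against 1.40%). The single receptor site stood in 10 (14.9% against 16.3%) and the E-box in 4 (5.97% against 7.15%). Neither the ERR motif, found in 0.423% of all promoters, nor DR1, found in 0.0396%, stood in any of the 67. These matches describe letters in a short window and not binding.

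The promoters of 4 members are shown, each 5′ to 3′ on the gene's strand, with the motif letters in capitals. Mrpl12 is the member with the largest difference between the siRNAs, and its window at chr11:120484387-120484686 (plus strand) held a single receptor site, on the opposite strand, that starts at base 34 after the gene start. Mrpl9 (chr3:94443086-94443385, plus strand), Mrps26 (chr2:130563507-130563806, plus strand) and Mrpl37 (chr4:107066817-107067116, minus strand) are the called members with the largest difference by their brightest probe among those that hold the NRF1, the ETS and the YY1 motif, and Mrpl37 also held an E-box.
Mrpl12: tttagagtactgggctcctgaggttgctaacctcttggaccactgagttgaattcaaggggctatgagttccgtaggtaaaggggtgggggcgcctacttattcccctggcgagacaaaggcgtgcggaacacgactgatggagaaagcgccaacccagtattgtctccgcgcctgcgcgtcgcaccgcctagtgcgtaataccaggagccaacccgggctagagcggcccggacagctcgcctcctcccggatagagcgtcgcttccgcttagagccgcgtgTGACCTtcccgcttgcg
Mrpl9: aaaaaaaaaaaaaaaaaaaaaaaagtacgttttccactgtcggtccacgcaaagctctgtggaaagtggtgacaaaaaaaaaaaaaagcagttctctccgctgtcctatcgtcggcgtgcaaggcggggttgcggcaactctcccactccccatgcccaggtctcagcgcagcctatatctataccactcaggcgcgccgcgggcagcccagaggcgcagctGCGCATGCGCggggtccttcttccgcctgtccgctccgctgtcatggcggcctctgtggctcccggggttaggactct
Mrps26: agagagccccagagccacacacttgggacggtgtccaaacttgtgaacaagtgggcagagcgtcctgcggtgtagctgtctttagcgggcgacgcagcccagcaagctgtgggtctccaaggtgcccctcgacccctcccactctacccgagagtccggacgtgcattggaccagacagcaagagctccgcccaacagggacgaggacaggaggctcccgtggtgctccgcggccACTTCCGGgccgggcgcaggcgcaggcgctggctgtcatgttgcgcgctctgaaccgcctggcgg
Mrpl37: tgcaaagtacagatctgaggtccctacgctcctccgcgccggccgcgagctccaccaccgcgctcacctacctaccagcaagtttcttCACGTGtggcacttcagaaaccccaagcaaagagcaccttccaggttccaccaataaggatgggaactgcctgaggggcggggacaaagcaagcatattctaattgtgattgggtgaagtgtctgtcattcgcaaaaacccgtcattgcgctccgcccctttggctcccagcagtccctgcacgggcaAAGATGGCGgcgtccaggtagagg
In Mrpl9 the NRF1 motif was read from both strands in a palindrome 28 bases before the gene start, in Mrps26 the ETS motif lay 15 bases before it, and in Mrpl37 the YY1 motif lay 27 bases after it. Of the 39 matched genes with a probe called below, 4 held the NRF1 motif, 9 the ETS motif and 3 the YY1 motif, against 3, 3 and 4 of the 24 matched genes without one.

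Averaged over the 8 days, 52 of the 99 mitochondrial ribosomal protein probes were lower in PPARγ KD cells than in control cells, and none was higher. All differences are given as KD minus control on the log2 scale of normalised signal, and a probe was called when its p from limma, adjusted by Bonferroni over all 24613 probes, was at most 0.05. The 52 called lower compare with 6.74% of all probes, and the 0 called higher with 6.37%. Of all 24613 probes 13564 were above background on no array, and among the 7121 above background on every array 16.1% were lower and 15.3% higher. The median difference over the 99 probes was −0.18, against −0.03 over the array, and over the 82 probes above background on every array it was −0.21, against 0.01. All 52 called probes belonged to those 82, were lower in each of the 3 replicates and spanned −0.15 to −0.64, so that the falls were small in size and MRPL12 alone passed 1.5-fold. Of the 47 probes not called, 39 had a negative difference. In whole cultures like these, fewer cells of a type and less RNA per cell cannot be told apart. Under Benjamini-Hochberg adjustment 72 members were lower, against 15.6% of all probes, and 2 higher, against 15.3%, namely MRPL52 and one of 3 MRPS25 probes. The fit held the replicate number as a block, and without it 28 were called lower. Without replicate 1 the count was 24. Under such changes of block or arrays the share of all probes called was not counted. A loss among members and a general loss of calls thus cannot be told apart, here or below.

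By gene, 45 of 72 had a called probe, and for 44 the brightest probe was among them. Both groups of names took part: 21 of 39 probes with MRPS names and 31 of 60 with MRPL names were lower, at a median of −0.18 for each. A name does not always give the subunit, as for MRPS30 below. Among probes for proteins with a bacterial counterpart 29 of 58 were lower, at a median of −0.17, and among probes for mitochondria-specific proteins 23 of 41, at a median of −0.21. The differences between these groups of members were not tested.

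**Figure D1:**
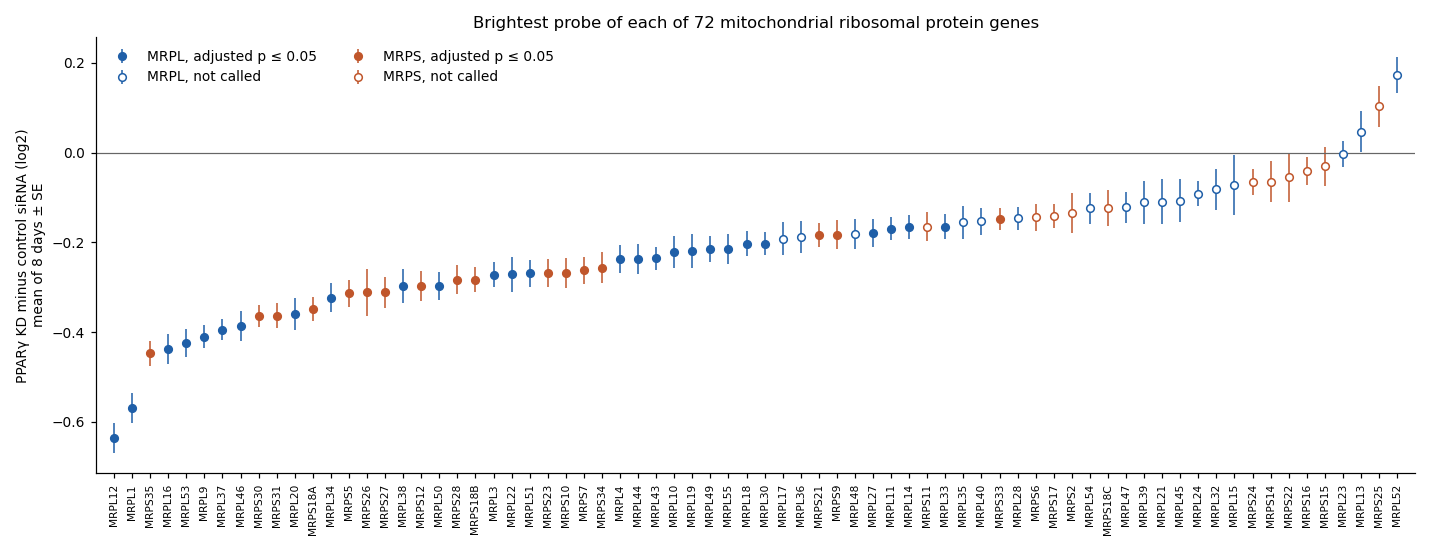
Each point is the brightest probe of 1 of 72 genes and gives its log2 difference, PPARγ KD minus control siRNA, averaged over 8 days, with the SE from limma as bar. MRPL genes are blue and MRPS genes orange, and filled points had an adjusted p of at most 0.05. MRPL12 and MRPL1 lie lowest, at −0.64 and −0.57, no filled point lies above 0, and MRPL52 lies highest, at 0.17.

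The largest fall was that of MRPL12, the counterpart of bacterial L7/L12 in the flexible stalk that recruits translation factors, which also binds the mitochondrial RNA polymerase. Its log2 signal had a median of 12.83 on the 24 control arrays (11.90 to 13.71) and of 12.03 on the 24 KD arrays (11.76 to 12.70). The arms overlapped over the course as a whole, yet MRPL12 was lower in 21 of 24 same-day, same-replicate pairs. The difference was −0.64 ± 0.03 (SE, adjusted p = 6.1e-16), or 1.55-fold lower. MRPL1, the protein of the other stalk of the large subunit, followed with −0.57 ± 0.03 (adjusted p = 1.2e-14) and was lower in 22 of 24 pairs. Its control arrays had a median of 10.97 (10.44 to 11.43) and its KD arrays of 10.38 (9.94 to 10.61).

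MRPS35, a mitochondria-specific protein of the small subunit, differed by −0.45 ± 0.03 (adjusted p = 1.5e-13), and its other probe by −0.41 ± 0.03 (adjusted p = 7.6e-12). MRPL16, whose bacterial counterpart sits near the site where aminoacyl-tRNA enters the large subunit, differed by −0.44 ± 0.03 (adjusted p = 2.7e-11) and was lower in all 24 pairs. MRPL53, a mitochondria-specific protein of the large subunit, differed by −0.42 ± 0.03 (adjusted p = 1.5e-11). With MRPL12 and MRPL1 these were the 5 genes with the largest called falls. MRPS30, which despite its name is placed in the large subunit, differed by −0.36 ± 0.02 (adjusted p = 1.0e-12).

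The small subunit protein MRPS12 sits at the decoding centre, and both of its probes were called, at −0.30 ± 0.03 (adjusted p = 3.5e-06) and −0.28 ± 0.03 (adjusted p = 1.4e-08). Mammals have 3 homologues of bacterial S18, and they did not give the same call. MRPS18A differed by −0.35 ± 0.03 (adjusted p = 9.3e-11) and was lower in 24 of 24 pairs. MRPS18B differed by −0.28 ± 0.03 (adjusted p = 1.3e-07) and was lower in 22 of 24 pairs. MRPS18C differed by −0.12 ± 0.04 (adjusted p = 1), was lower in 15 of 24 pairs, and had values of −0.31, 0.02 and −0.08 in replicates 1, 2 and 3. Whether the 3 differences differ from each other was not tested. Replicate 3 of MRPS18C lay 1.12 log2 units below the other replicates in both arms together.

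Members with a positive difference were few, and none was called: 8 of the 47 uncalled probes. MRPL52 had the highest, 0.17 ± 0.04 (adjusted p = 1), with values of 0.01, 0.27 and 0.24 in the 3 replicates. The 3 probes of MRPS25 read 0.05, 0.10 and 0.14, and the 2 of MRPL13 read 0.05 and 0.08. For MRPS25 these averages join days of unlike sign: each probe had a lower KD mean on day 2 and a higher one on day 6. By its brightest probe the means were 10.51 in control and 10.16 in KD on day 2, and 9.66 and 9.93 on day 6. MRPL52, one MRPL13 probe and one MRPS25 probe were among the 8 that replicate 3 set apart. Their levels there were lower by 1.42, 2.11 and 1.06 log2 units.

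Of 19 genes with several probes, 5 had every probe called (MRPL3, MRPL37, MRPL43, MRPS12 and MRPS35), 9 had some called and 5 had none. Directions within a gene went apart with a call in 1 case: MRPL1 fell by the bright probe, a second probe above background on 27 arrays read −0.13 (adjusted p = 1), and another, below background on all arrays, read 0.06. MRPL48 had 5 probes, of which 1 was called, at −0.23 ± 0.04 (adjusted p = 0.013), and not the brightest, which read −0.18 (adjusted p = 0.10).

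The gap between the arms opened with the days and was widest on day 2. The median difference over the 99 probes was 0.06 on day −2, −0.05 on day 0 and −0.19 on day 1. It was −0.43 on day 2, −0.30 on day 3 and then −0.22, −0.16 and −0.19 on days 4, 5 and 6. No member was lower on day −2 (0.674% of all probes were) or on day 0 (1.37%), and 1 was on day 1 (1.49%), MRPS6. On day 2, 38 members were lower, against 4.18% of all probes. The counts were 10 on day 3 (2.29%), 5 on day 4 (2.13%), 9 on day 5 (2.68%) and 11 on day 6 (3.09%). Among the 7121 probes above background on every array the share lower was 10.8% on day 2 and between 4.61% and 7.13% on days 3 to 6. No member was called higher on any of the 8 days, whereas 6.13% of all probes were on at least 1. On day 2 the 3 KD values of 67 members lay wholly below the 3 control values, against 9.91% of all probes, and those of 0 members wholly above, against 9.65%. Among probes above background on every array 63 of 82 members lay wholly below, against 1706 of 7121, and 0 wholly above, against 1670. Without the replicate block the day 2 count was 17, and leaving out replicate 1 or 2 gave 15 and leaving out replicate 3 gave 23. The largest differences on day 2 were those of MRPL12, −1.19 ± 0.10 (adjusted p = 3.0e-10), or 2.29-fold lower, and of MRPL9, −0.98 ± 0.07 (adjusted p = 8.1e-12), or 1.97-fold lower.

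**Figure D2:**
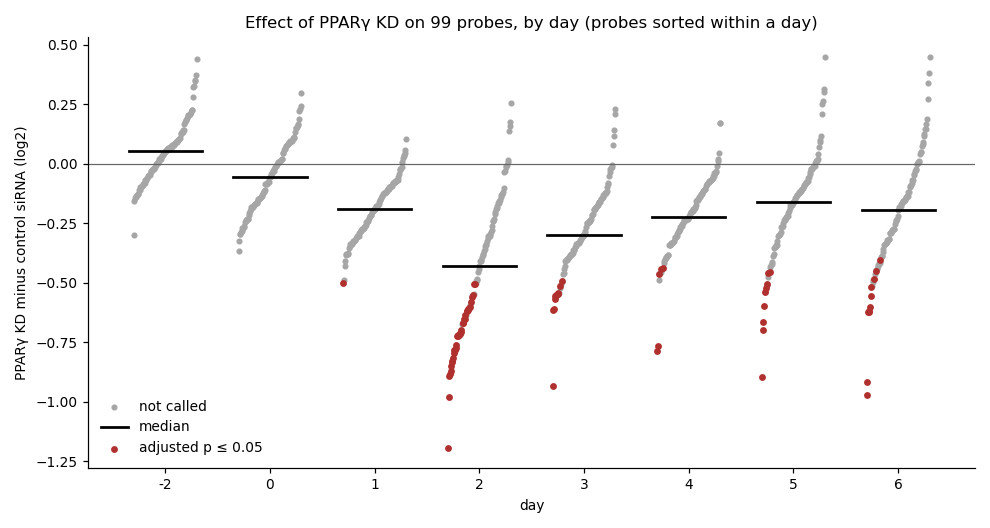
Each point is 1 of 99 probes on 1 of 8 days and gives its log2 difference, PPARγ KD minus control siRNA, with probes sorted by value within a day; red points had an adjusted p of at most 0.05 on that day and black bars are medians. The medians run from 0.06 on day −2 to −0.43 on day 2 and −0.19 on day 6, and every red point lies below 0.

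On day 2 MRPL12 read 13.71, 13.54 and 13.46 in control replicates 1, 2 and 3 and 12.30, 12.54 and 12.28 in KD. On day −2 the same arms had read 11.98, 11.96 and 11.90, and 12.01, 12.17 and 11.98. The arms thus lay close together on day −2, where the lowest KD value (11.982) lay just above the highest control value (11.980). On day 2 every KD value lay below every control value, without overlap. MRPL9, whose bacterial counterpart reaches out from the foot of the L1 stalk, read 11.38, 11.31 and 11.47 in control on day 2 and 10.36, 10.31 and 10.55 in KD, again without overlap. MRPS27, a helical-repeat protein of the small subunit, read 10.45, 10.31 and 10.23 in control and 9.51, 9.41 and 9.47 in KD. Day 2 was chosen after seeing the data, and the change of effect was tested as the effect on that day minus that on day −2. In this 25 members were called lower, against 2.63% of all probes, and 0 higher, against 3.34%. Among probes above background on every array 30.5% of members were lower, against 6.90%, and 0 higher, against 9.11%. MRPL12 had −1.30 (adjusted p = 4.6e-07) and MRPL9 −1.07 (adjusted p = 1.4e-08). Without the block the count was 8, with each same-day pair as a block it was 9, and without replicate 1, 2 or 3 it was 4, 4 and 12. An F-test of the siRNA effect over all 8 days called 10 members, or 10.1%, against 7.11% of all probes. Among probes above background on every array it was 12.2% of members against 17.8%, so the count is no result about the members. It was 3 without the block, 2 with same-day pairs as blocks, 0, 0 and 7 without replicates 1, 2 and 3, 16 under median scaling, 18 under quantile scaling and 23 with a detection filter.

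In control cells 60 of 99 member probes rose from day −2 to day 2, and in KD cells 1 did. With control siRNA the median over the 99 probes, relative to day −2, was 0.15, 0.37 and 0.61 on days 0, 1 and 2, then 0.26 on day 3 and 0.18, 0.15 and 0.15 on days 4 to 6. With PPARγ siRNA it was 0.05, 0.11 and 0.07 on days 0, 1 and 2, and −0.04, −0.08, −0.07 and −0.11 on days 3 to 6. Day 2 was the day with the highest mean for 71 of 99 members under control siRNA and for 19 under PPARγ siRNA. Of the 7121 probes above background on every array it was so for 1692 and 617. The 60 that rose in control cells compare with 6.93% of all probes, and 0 fell, against 6.98%. Among probes above background on every array 70.7% of members rose, against 18.4%, and 0 fell, against 17.7%. Not all members took part: MRPL54, which read 11.82, 11.72 and 11.56 on day −2, read 11.70, 11.45 and 11.66 on day 2. In KD cells 1 rose, an MRPS12 probe by 0.43, against 1.60% of all probes, and 0 fell, against 1.17%.

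**Figure D3:**
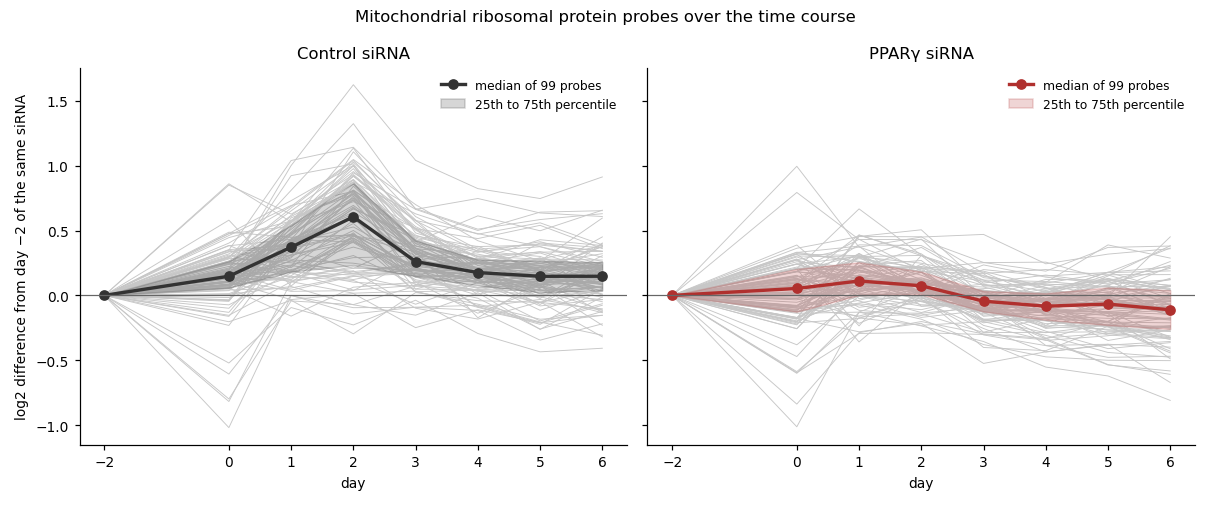
Grey lines are 99 probes, each as its mean log2 difference from day −2 of the same siRNA, against the day; the coloured line is their median and the band their interquartile range. Under control siRNA the median climbs to 0.61 on day 2 and is 0.15 on day 6, and under PPARγ siRNA it stays between 0.11 and −0.11.

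The F-test over the course called 59 members in control cells, against 23.5% of all probes, and 24 in KD cells, against 16.5%. Among probes above background on every array the shares were 70.7% of members against 59.9% in control cells and 29.3% against 42.5% in KD cells, so that in KD cells the share of changed members was above that of all probes and below that of expressed ones. Without the replicate block these counts were 32 and 9, and leaving out replicates 1, 2 and 3 in turn gave 18, 19 and 32 for control cells and 0, 2 and 8 for KD cells. The largest rises in control cells on day 2 were MRPL12 with 1.62, or 3.08-fold, MRPL15 with 1.32 by a probe above background on 18 of 48 arrays, one MRPL51 probe with 1.14, MRPS27 with 1.13 and MRPL9 with 1.11, or 2.15-fold. MRPS2 with 1.05 and MRPS7 with 1.04, homologues of bacterial small subunit proteins, came next among brightest probes. In KD cells the differences of MRPL12, MRPS27, MRPL9, MRPS2 and MRPS7 read 0.32, 0.06, 0.03, 0.19 and −0.03. After the peak 17 members fell from day 2 to day 3 in control cells, against 3.92% of all probes, and 0 rose, against 4.53%. Of those above background on every array 20.7% of members fell, against 11.5% of such probes, and 0 rose, against 11.4%. Among the 17 were MRPL19 (−0.72), MRPS27 (−0.65), MRPS31 (−0.62), MRPL50 (−0.62) and MRPS18B (−0.58). In KD cells 1 fell over this step, an MRPS12 probe, against 0.999% of all probes, and 0 rose, against 0.902%.

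MRPS18B and MRPS18A had unlike courses in control cells. MRPS18B read 0.92 on day 1 and 1.01 on day 2 above day −2, and in KD cells 0.67 and 0.31. MRPS18A was highest on day 0, at 0.58 in control and 0.39 in KD cells, and its step from day −2 to day 0 was called in control cells (adjusted p = 0.00014). MRPS18C lay between −0.07 and 0.20 of day −2 on all later days in control cells.

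A few members moved early, some down and some up. Of the probes called in control cells over the first step, all but that of MRPS18A were also called in KD cells. From day −2 to day 0, under IBMX and dexamethasone, 4 control probes fell, against 5.04% of all probes, and 3 rose, against 4.01%. Among probes above background on every array 4.88% of members fell, against 12.3%, and 3.66% rose, against 10.1%. The counts thus lay near the share of all probes and below that of expressed ones. The falls were MRPL54, MRPS28 and 2 of the 5 MRPL48 probes. MRPL54 read 11.82, 11.72 and 11.56 on day −2 and 10.74, 10.66 and 10.64 on day 0 in control cells, with no overlap. In KD cells it read 11.86, 11.95 and 11.60 and then 10.85, 11.11 and 10.42. The fall was −1.02 ± 0.10 (adjusted p = 3.4e-08) in control and −1.01 ± 0.10 (adjusted p = 4.0e-08) in KD cells. By day 1 it had returned, to 11.70, 11.80 and 11.59 in control and 11.76, 11.85 and 11.43 in KD cells. MRPS28 fell by 0.80 in control (adjusted p = 4.2e-06) and by 0.60 in KD cells (adjusted p = 0.0028), and the called MRPL48 probes fell by 0.61 and 0.82 in control cells. The risers were MRPS18A, MRPL49 with 0.85 and one MRPS25 probe with 0.86. The other MRPL49 and MRPS25 probes read 0.24 to 0.48 and were not called.

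**Figure D4:**
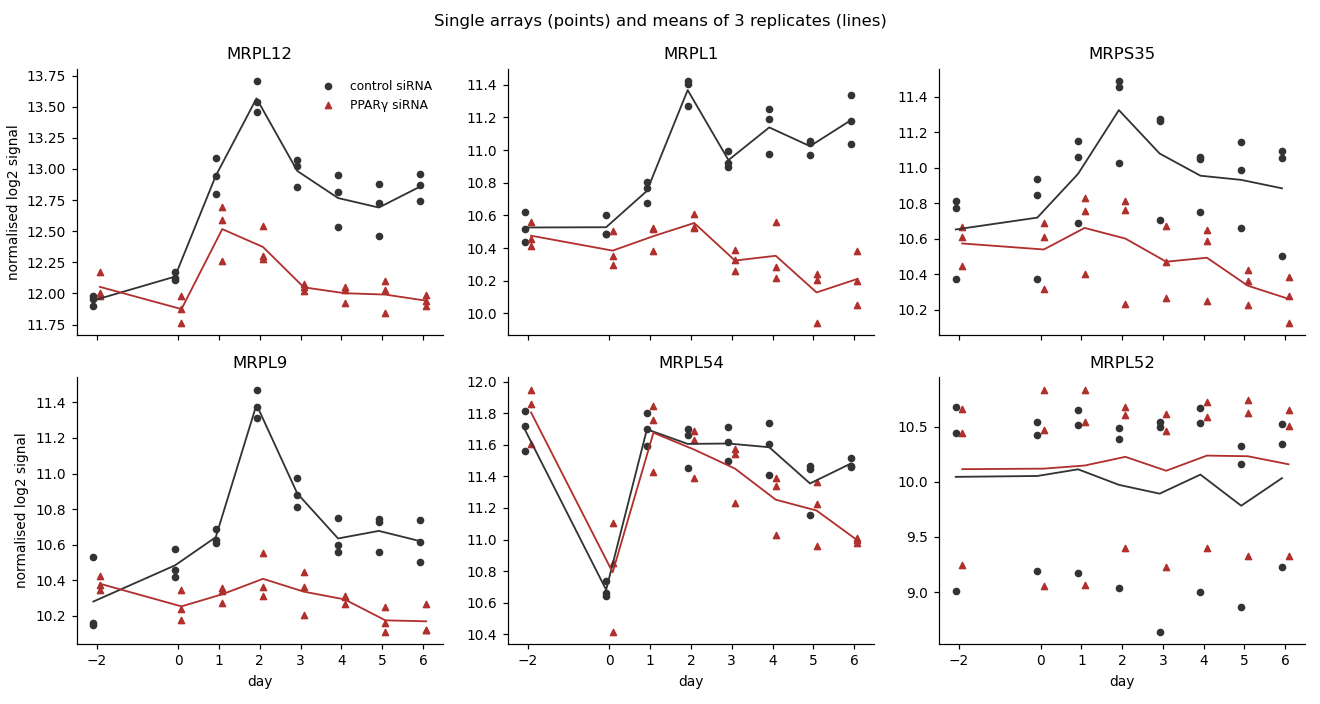
Normalised log2 signal on single arrays (circles control siRNA, triangles PPARγ siRNA) against the day for 6 probes, with lines through the means of 3 replicates; each panel has its own scale. MRPL12 reaches 13.46 to 13.71 in control cells on day 2 against 12.28 to 12.54 in KD, MRPL54 dips on day 0 in both arms, and in the MRPL52 panel replicate 3 lies 1.42 below the others.

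On days 4 to 6 the difference was smaller than at the peak but present. In the fit of these 18 arrays 16 members were lower, against 3.77% of all probes, and 0 were higher, against 1.54%, at a median of −0.20 against −0.01. Among probes above background on every array 19.5% of members were lower, against 8.30%, and 0 higher, against 3.43%. All 16 were also called over the 8 days. MRPL1 led with −0.88 ± 0.07 (adjusted p = 1.4e-05), then MRPL12 with −0.79 ± 0.06 (adjusted p = 1.9e-05), MRPS35 with −0.56 ± 0.05 (adjusted p = 0.00018), MRPL53 with −0.53 ± 0.06 (adjusted p = 0.00085) and MRPL16 with −0.50 ± 0.05 (adjusted p = 0.00083). On day 6 MRPL1 read 11.18, 11.03 and 11.34 in control and 10.20, 10.05 and 10.38 in KD, and MRPL12 read 12.87, 12.74 and 12.96 against 11.90, 11.99 and 11.94. Neither pair of groups overlapped. The count rested on the block and on each replicate: it was 2 without the block, 10 with each same-day pair as a block, and 2, 2 and 4 without replicates 1, 2 and 3.

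The effect on days 4 to 6 exceeded that on days 0 to 2 in 1 member, MRPL1, by −0.47 ± 0.06 (adjusted p = 0.011), against 2.82% of all probes lower in this contrast. That call was lost without the block (adjusted p = 0.055), with each same-day pair as a block (adjusted p = 0.15), under median scaling (adjusted p = 0.087), and without replicate 1 or 2 (adjusted p = 1 in both). By day 6 the counts of members that differed from day −2 were near the background. In control cells 4 were above it, against 4.11% of all probes, and 0 below, against 2.14%. The 4 were MRPL12 (0.91), MRPL1 (0.66), MRPL38 (0.61) and MRPL20 (0.60). In KD cells 5 probes were below day −2, against 1.92%, and 0 above, against 2.49%: MRPL54 (−0.81), MRPL19 (−0.67) and 3 probes of MRPL48 (−0.48 to −0.61). Among probes above background on every array, 4.88% of members against 8.73% were above day −2 in control cells, and 6.10% against 5.49% were below it in KD cells.

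Other genes of mitochondrial translation were counted from lists of known symbols. Of 11 probes for translation factors 7 were lower, at a median of −0.25, among them TUFM, the elongation factor that brings aminoacyl-tRNA (−0.43, adjusted p = 7.3e-15), GFM1, the translocase (−0.41, adjusted p = 2.8e-09), GFM2, which helps to recycle ribosomes (−0.52, adjusted p = 1.7e-11), and the initiation factor MTIF3 (−0.46, adjusted p = 2.0e-13). Of 18 probes for mitochondrial aminoacyl-tRNA synthetases 9 were lower, at a median of −0.17, led by EARS2 (−0.45, adjusted p = 3.5e-09). Of 21 probes for ribosome assembly and RNA handling 5 were lower, including MTO1, which modifies transfer RNA (−0.41, adjusted p = 3.0e-11), and RNMTL1, a methyltransferase of the large ribosomal RNA (−0.41, adjusted p = 1.6e-10). Of 12 probes listed for ribosomal proteins that do not carry MRPL or MRPS names 3 were lower. All 3 were for DAP3, a GTP-binding protein of the small subunit (−0.20 to −0.27). This list also took in probes of OXA1L, which is no ribosomal protein, and none of them was called. Of 10 probes for transcription and copying of mitochondrial DNA 1 was lower, MTERFD3, and the probe of TFAM above background read −0.09 (adjusted p = 1). No probe of these 5 lists was called higher over all days.

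A pair of larger families was set beside the members with the same call. Of 60 probes for cytosolic ribosomal proteins 2 were lower, RPS19 and RPL22, and 0 higher, at a median of −0.03. Over all probes 6.74% were lower and 6.37% higher. RPS19 differed by −1.28 (adjusted p = 8.5e-21), against −0.64 for the largest member fall. Of these 60, 39 were above background on every array and 9 on none. On day 2 alone 4 were lower, against 4.18% of all probes, and 0 higher, against 4.74%. Several were very bright, such as RPL41 with a control mean of 15.7, and whether such signals narrow a difference was not tested. Of 85 probes for subunits of oxidative phosphorylation 52 were lower and 0 higher, at a median of −0.25. The symbol pattern behind this list also took in 2 probes of COX4NB, which is no such subunit, and both were lower. On day 2 the medians were −0.08 for cytosolic ribosomal proteins, −0.38 for oxidative phosphorylation and −0.43 for the members, and on days 4 to 6 they were 0.03, −0.34 and −0.20. In control cells the median of oxidative phosphorylation was 0.38 on day 2, 0.32 on day 3 and 0.29 on day 6 above day −2, against 0.61, 0.26 and 0.15 for the members. These are counts and medians side by side, and the differences between the families were not tested.

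**Figure D5:**
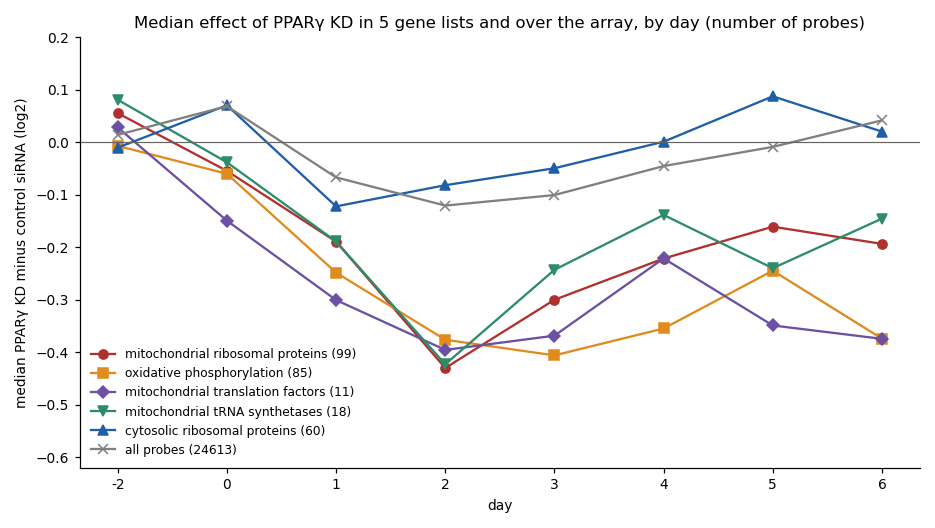
Lines give the median log2 difference, PPARγ KD minus control siRNA, on each of 8 days for 5 lists and for all 24613 probes, with the number of probes in brackets. The members reach −0.43 on day 2, with translation factors at −0.40 and tRNA synthetases at −0.42, while cytosolic ribosomal proteins read −0.08 and all probes −0.12.

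Fat cell markers were lower in KD cells, but the course of their summed level differed from that of the members. The summed log2 level of the 9 adipocyte markers ran from 13.38 to 17.52 on control arrays and from 12.05 to 15.33 on KD arrays, and on day 2 from 16.7 to 16.8 against 13.7 to 13.8. It went on rising to day 6, from 13.4 to 13.6 on day −2 to 17.4 to 17.5 in control cells and from 12.2 to 12.4 to 15.1 to 15.3 in KD cells, while the member median was 0.15 and −0.11 from day −2 by then. This sum adds signals before log2 is taken, so the brightest markers weigh most. Single markers did not all go on rising. In control cells CIDEC read 9.65 above day −2 on day 2 and 8.75 on day 6, and PLIN 5.20 and 4.69. CFD went from 4.05 to 10.55 and ADIPOQ from 7.79 to 9.11. Of the 10 marker probes 3 had their highest control mean on day 2. FABP4, CD36, PLIN and RETN were above background on 0 KD arrays. Of the 8 fibroblast and preadipocyte marker probes, 4 were higher in KD over all days and 0 lower. In control cells the summed level of the 7 genes ran from 16.5 to 16.7 on day −2. It was lowest on day 2, when the member median was highest, at 15.8 to 15.9, and ran from 16.5 to 16.6 on day 6. In KD cells this sum ran from 16.4 to 16.5 on day −2, 16.3 to 16.4 on day 2 and 16.7 to 16.8 on day 6. The share of the member values that goes with the number of cells turned into fat cells was not tested.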

How the data were processed

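RNA from 48 cultures had been hybridised to Illumina mouse BeadChips. The deposited table holds, per array and probe, a signal intensity as the mean over beads, with no normalization per the file headers (BeadStudio 3.3.7), a detection value, a fraction that the authors' software gives as 1 minus the detection p, and a bead number, an other quantity that was not tested (median 35 for the members). The authors' own rank-invariant normalised values and batch-corrected analysis were not used here. No probe sequences were read.

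Signals were corrected with normexp (offset 16), scaled between arrays by rank-invariant probes (rank change under 0.05, between the 50th and 90th percentile of signal), in factors of 0.73 to 1.58, and taken to log2. Models were fitted with limma 3.58.1 in R 4.3.3 with a mean for each of the 16 groups and a block for replicate number, as the study's methods removed a batch effect. All 24613 probes entered each test, and p was adjusted by Bonferroni at 0.05, as the study's methods state. A supplementary figure legend of the study names a false discovery rate cutoff instead. Days 4 to 6 were fitted on their 18 arrays alone. P-values measure the spread of arrays around their group means after the replicate block, with 3 independent biological replicates in each group. They do not measure the spread of 3 replicate-level differences. The contrast over 8 days counts the days of a replicate as independent. The replicate numbers come from the sample labels: same-numbered control and KD arrays deviated together from their group means in all 24 pairs (correlations of 0.544 to 0.914). Arrays of different numbers correlated by −0.889 to 0.854, and 15 of 24 KD arrays correlated best with their own number. The code was tested on simulated data.

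The members and gene lists were chosen with earlier results of these data known. For each comparison the 5 genes with the largest called difference in each direction that moved alike in 3 replicates were named, with MRPL12, MRPS12 and the MRPS18 genes, a gene being given by its brightest probe. The tests of day 2 and of the siRNA effect over days were added after seeing the data, and other genes were named to describe counts. Alternatives were quantile or median scaling, no background correction, an offset of 50, a detection filter (at least 3 arrays), other blocks, Benjamini-Hochberg adjustment and leaving out each replicate. A block for the BeadChip was not run, as the table names no chip.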

Additional observations from a re-analysis of the deposited data

Results flagged for a closer look

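These members passed a test of whether the effect of PPARγ KD differed between time points, and the calls depended on the fit. The effect on MRPL1 (bright probe) was larger on days 4 to 6 than on days 0 to 2, by −0.47 on the log2 scale, a call that was lost without the replicate block, with same-day pairs as blocks, under median scaling and without replicate 1 or 2. The F-test of the effect over 8 days gave adjusted p-values (limma, Bonferroni) of 4.95e-06 for MRPL9, 5.03e-06 for MRPL12, 0.000167 for MRPL1, 0.000201 for MRPS7, 0.00295 for MRPL3 (1 of 2 probes), 0.00358 for MRPS35 (1 of 2 probes), 0.00579 for MRPS27, 0.0109 for MRPS34, 0.018 for MRPL55 and 0.0373 for MRPL37 (1 of 2 probes). These 10 were 12.2% of the members above background on every array, against 17.8% of all such probes. The count was 3 without the block, 2 with same-day pairs as blocks, and 0 to 7 when a replicate was left out. Groups of 3 arrays were too small for a test of single outlying arrays.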

How the results depend on the processing

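The median over members stayed negative over all 8 days, on days 4 to 6 and on day 2 under every alternative run, and no named gene changed direction: 289 single-gene values kept their call, 43 lost it and 9 gained one. Counts depended on the replicate block, on the pairing of same-numbered arrays. Without it, members lower numbered 28 over all days, 2 on days 4 to 6, 0 for late minus early, 17 on day 2 and 8 for the day 2 minus day −2 effect, and changed members 32 in the control course, 9 in the KD course and 3 for siRNA by day. With a block for each same-day pair they were 10 on days 4 to 6, 0 late minus early, 25 on day 2, 9 for day 2 minus day −2 and 2 for siRNA by day. The share of all probes called under these fits was not counted, nor that with a replicate left out.

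Leaving out each replicate gave ranges of 24 to 36 lower over all days, 2 to 4 on days 4 to 6, 0 to 1 late minus early, 15 to 23 on day 2 and 4 to 12 for day 2 minus day −2, and of 18 to 32 changed in the control course, 0 to 8 in the KD course and 0 to 7 for siRNA by day. Benjamini-Hochberg adjustment, with the share of all probes in brackets, gave 2 higher over all days (15.3%), 54 lower (9.82%) and 2 higher (11%) on days 4 to 6, 4 lower (7.06%) and 3 higher (4.88%) late minus early, 62 changed in the KD course (36.1%), 68 lower on day 2 (12.4%), 58 for day 2 minus day −2 (8.95%) and 51 for siRNA by day (21.5%). The siRNA by day count was 16 under median scaling, 18 under quantile scaling and 23 with the detection filter, which left 10567 probes to test. Median scaling gave 0 late minus early and a KD day 2 median of 0.011 from day −2, and quantile scaling a median of −0.14 on days 4 to 6. Without background correction the control rise to day 2 was 0.55 and the day 2 difference −0.34, and with the detection filter 0.69 and −0.50. The day 2 and siRNA by day tests were chosen after seeing the data. The BeadChip block was not run. Probes not above background have no usable level, and 3 replicates limit the precision of a single day.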
